A study of Rattus norvegicus with 43 samples.

Results

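High-amylose wheat was compared with low-amylose wheat in the distal colon of rats, by taking every array labelled with the diet HAW (n = 8) against every array labelled LAW (n = 6). These 14 arrays belong to a set of 43, each from a different 11-week-old Sprague Dawley rat. The other diets were a control (CON, n = 5) and 3 with maize starch: LAMS, low in amylose (n = 7), HAMS, high in amylose (n = 8), and HAMSB, the latter in butyrylated form (n = 9). The labels give diets as codes. Reading them as these starches rests on the series title, which names a Western diet, and on knowledge of the study. On that basis the wheat and maize diets are read as Western diets and CON is not. A wheat diet and CON thus differ in more than starch. The sample labels write HAM for the group called HAMS here, the name in the series description, and the 2 were taken as the same diet. No source used here gives the starch content of the diets, the time on them or a genetic modification of the rats. Total RNA of whole tissue, 100 ng per rat, was hybridised to Affymetrix arrays, and the values are the authors' log2 expression, so a difference of 1 is a 2-fold difference.

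Amylose is the nearly unbranched polymer of starch, and starch rich in it is digested poorly in the small intestine. What escapes digestion reaches the large bowel, where bacteria ferment it to the short-chain fatty acids acetate, propionate and butyrate. Butyrate is a main fuel of colonocytes, enters them through the transporters Slc16a1 and Slc5a8, is sensed by the receptors Ffar2, Ffar3 and Hcar2, and inhibits histone deacetylases. The comparison asks which colonic genes differ when the wheat of the diet is rich or poor in amylose.

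No gene passed the test between the wheats. With limma, 0 of 10934 genes (0%) had a Benjamini-Hochberg adjusted p under 0.05, and the smallest adjusted p was 0.9999. An unadjusted p under 0.05 was reached by 212 genes (1.94%), with HAW higher in 76 (0.695%) and lower in 136 (1.24%). In this fit that is fewer than the 5% that a flat distribution of p would give, though array weights gave 924 genes, which is more. The lowest bin of p in this fit was the emptiest. The same fit, on the same genes, called 1545 genes (14.1%) between HAMS and LAMS, with 237 (2.17%) higher and 1308 (12%) lower in HAMS, and gave an unadjusted p under 0.05 for 3686 (33.7%). That maize count depended on the setting: it was 6 with array spread and 53 with the adipocyte level as a covariate, and 614 (without LAMS 6) to 2425 (without HAMS 1) with 1 rat left out. All 8 HAMS arrays but only 3 of 7 LAMS arrays shared a style of file name, and their mean interquartile ranges were 3.01 and 3.21. The maize difference is thus partly mixed with name style and array spread. With name style as a block 945 genes were called, 442 of them among the 1545.

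**Figure D1:**
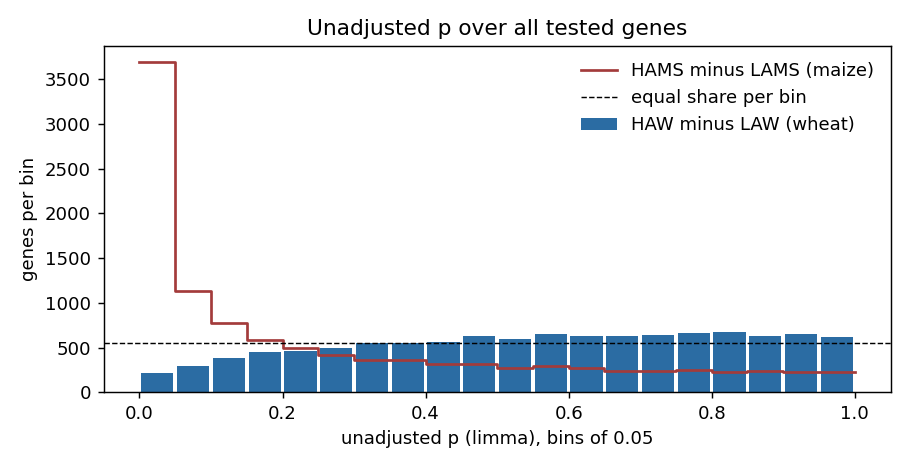
Number of genes (vertical axis) in each bin of unadjusted limma p, 0.05 wide (horizontal axis), for HAW minus LAW (bars) and HAMS minus LAMS (line); the dashed line is an equal share per bin. The first bin holds 212 genes for wheat and 3686 for maize.

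The arrays set a bound on how large a missed difference could be. The median HAW minus LAW difference over all genes was -0.02, and the median absolute difference was 0.0758 on the log2 scale. The 95% confidence interval reached a median of 0.26 to either side of the difference. For 10717 genes the interval lay wholly between -1 and 1, so a 2-fold difference was outside it, and for 9212 genes (84.3%) it lay between -0.5 and 0.5. These intervals are per gene and not adjusted for the number of genes. Differences of 1 or more were measured for 4 genes and of 0.5 or more for 33, none with an adjusted p under 0.05. Individual rats within a wheat diet varied by a median SD of 0.224 in LAW and 0.258 in HAW. The genes that follow are those with the smallest unadjusted p, those fixed for naming, such as genes of the butyrate pathway, and leading members of gene lists. Others were chosen after their values were seen, or are named beside related genes. All values are descriptions of these 14 rats.

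The smallest p belonged to Efhd1, a mitochondrial calcium-binding protein. Its values in LAW ran from 4.94 through a median of 5.02 to 5.21, and in HAW from 5.05 through 5.46 to 5.80. They lie near the floor for testing, a median of 4.75. The difference was 0.41 ± 0.10 (SE), or 1.33-fold, with an unadjusted limma p of 0.00012. Thus 7 of 8 HAW rats lay above every LAW rat, and the HAW median was also nearer to the control mean of 5.31 ± 0.15 (SD, n = 5) than the LAW median was. Spaca6, known for its part in sperm and egg fusion, ran from 5.57 through 5.77 to 6.24 in LAW and from 5.23 through 5.38 to 5.67 in HAW, a difference of -0.39 ± 0.10. Both of its other probe sets gave smaller differences, -0.13 ± 0.18 and -0.25 ± 0.17.

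Groups without overlap were found for 2 genes (0.0183%), Yju2b, with HAW below LAW (0.00915%), and Ccni, with HAW above LAW (0.00915%). Yju2b, a relative of a splicing factor, ran from 6.89 through 7.00 to 7.21 in LAW and from 6.46 through 6.74 to 6.83 in HAW, a difference of -0.33 ± 0.09. All 8 HAW rats lay below all 6 LAW rats, while the control rats, from 6.62 to 7.16, spanned both. Ccni, a cyclin, reached at most 10.467 in LAW and at least 10.470 in HAW, so the groups all but touch, and the difference was 0.20 ± 0.11. Ccni lies outside the rule for named genes and is named because it is 1 of these 2.

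In the clock list, Per3, a period gene of the circadian clock, ran from 6.78 through 7.14 to 7.55 in LAW and from 6.26 through 6.78 to 7.13 in HAW, a difference of -0.42 ± 0.14. Nr1d1, the clock repressor also called Rev-erb alpha, lay the other way, by 0.29 ± 0.14. The core gene Bmal1 differed by 0.10 ± 0.13 and Clock by -0.06 ± 0.17. Of the 16 clock genes tested, 1 was higher and 1 lower at an unadjusted p under 0.05, and the list median was -0.09. Over all genes, 0.695% were higher and 1.24% lower at that p. The times at which rats were killed are not given in the sources used here.

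**Figure D2:**
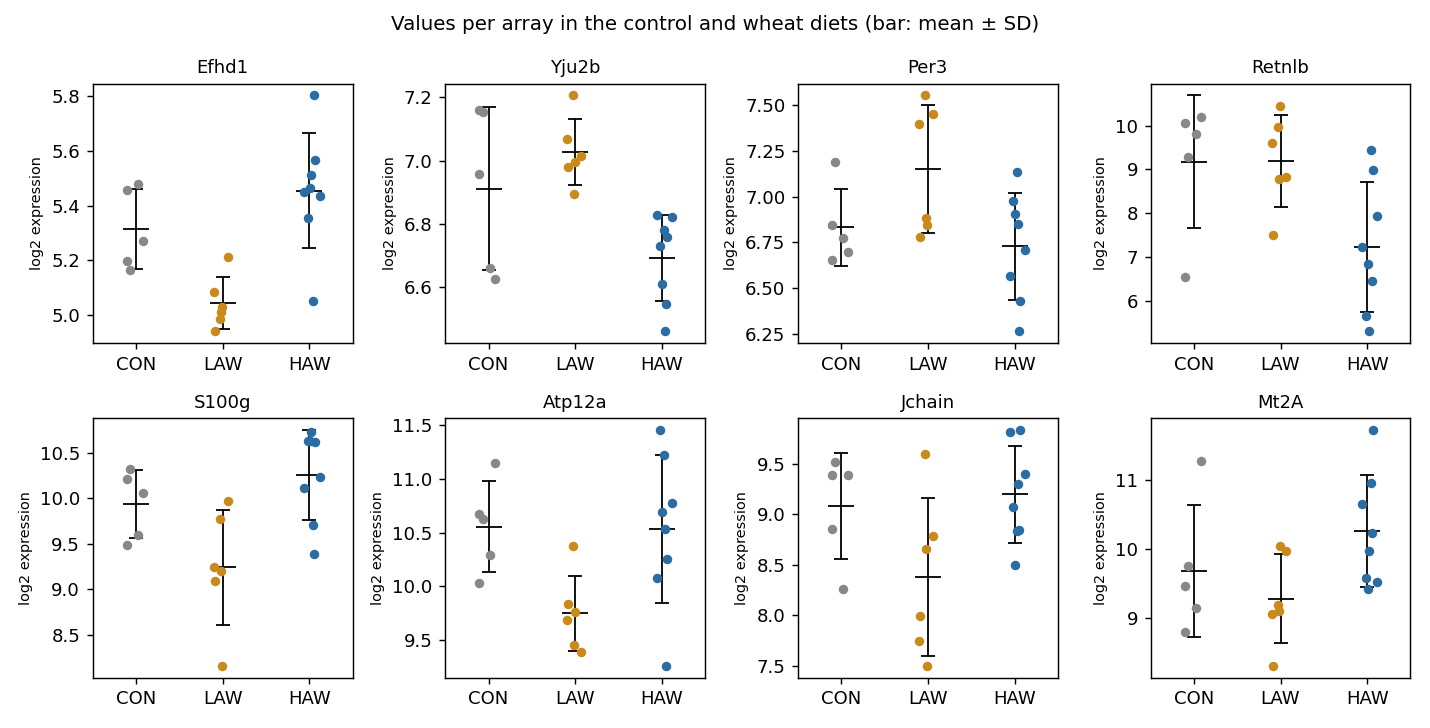
Log2 expression (vertical axis) of 8 genes in each rat of the control diet (grey), LAW (ochre) and HAW (blue); each point is 1 array and the bars give mean ± SD. Of these 8 genes, Yju2b alone has no overlap between LAW and HAW.

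The largest difference was in an epithelial defence gene. Retnlb, a bactericidal protein secreted by goblet cells, ran from 7.49 through 9.21 to 10.45 in LAW and from 5.31 through 7.04 to 9.45 in HAW. Its difference, -1.96 ± 0.64 (95% confidence interval -3.25 to -0.66), was the largest of all genes and amounts to 3.88-fold more in LAW, with an unadjusted limma p of 0.00393. In HAW, 5 of 8 rats lay below every LAW rat, but the 5 control rats alone spanned 6.54 to 10.20. Retnla, its neighbour in the genome and a member of the same resistin-like family, differed by -1.52 ± 0.63. It ran from 6.33 through 8.16 to 9.59 in LAW and from 4.90 through 6.51 to 9.08 in HAW. Because the family members resemble one another, cross-hybridisation between them was not separated here. The 22 tested members of the goblet cell list had a median of 0.04. At an unadjusted p under 0.05, 1 was higher (Muc1, a membrane mucin, by 0.40 ± 0.19) and 1 lower (Retnlb). The shares over all genes at that p were 0.695% higher and 1.24% lower.

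S100g, the calcium-binding protein calbindin-D9k and a vitamin D target, ran from 8.16 through 9.22 to 9.97 in LAW and from 9.39 through 10.43 to 10.73 in HAW. The difference was 1.02 ± 0.34 (95% confidence interval 0.34 to 1.70), or 2.02-fold, and 6 of 8 HAW rats lay above every LAW rat. The control rats, from 9.49 to 10.33, lay within the HAW range. Casr, the calcium-sensing receptor, ran from 6.26 through 6.94 to 7.60 in LAW and from 6.88 through 7.58 to 7.99 in HAW, a difference of 0.48 ± 0.19. These were the 2 of 8 tested members of the calcium and vitamin D list with an unadjusted p under 0.05, both higher, where 0.695% of all genes were higher at that p, and the list median was 0.08.

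A pair of ion transport genes of the epithelium also lay higher in HAW, the 2 of 31 tested in their list with an unadjusted p under 0.05 (0.695% of all genes were higher at that p), and the list median was 0.02. Atp12a, the colonic proton and potassium pump, ran from 9.39 through 9.72 to 10.37 in LAW and from 9.26 through 10.61 to 11.46 in HAW, a difference of 0.79 ± 0.28. Here the ranges overlapped fully at the low end, since 1 HAW rat lay below every LAW rat and 5 lay above. Slc26a3, the chloride and bicarbonate exchanger, had a median of 10.69 and a highest value of 10.99 in LAW, and ran from 10.40 through 11.10 to 11.49 in HAW. Its difference was 0.47 ± 0.20, and 6 of 8 HAW rats lay above every LAW rat. The whole absorptive colonocyte list of 22 tested genes had a median of 0.07, and Slc26a3 was its 1 member with an unadjusted p under 0.05. Abo3, a glycosyltransferase of the ABO family, differed by 0.82 ± 0.37, which turned on a pair of LAW rats at 8.54 and 8.74 while the other 4 lay between 10.80 and 11.64 and all HAW rats between 10.71 and 11.55.

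Jchain, which links antibody subunits into polymers for secretion across the epithelium, ran from 7.50 through 8.33 to 9.59 in LAW and from 8.50 through 9.19 to 9.83 in HAW. The difference was 0.82 ± 0.28, or 1.76-fold, and all 8 HAW rats lay above the LAW median although 6 lay within the LAW range. The 9 tested plasma cell genes, Jchain among them, had a median of 0.06, and their mean level per rat ran from 6.30 to 6.70 in LAW and from 6.40 to 6.78 in HAW.

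The metallothioneins, small proteins that bind zinc and copper, were led by Mt2A and Mt1, which lay higher in HAW; the third tested, Mt3, differed by 0.15 ± 0.16. Mt2A ran from 8.31 through 9.15 to 10.04 in LAW and from 9.42 through 10.10 to 11.72 in HAW, a difference of 0.975 ± 0.41 with an unadjusted limma p of 0.0222. Mt1 ran from 9.78 through 10.96 to 11.36 in LAW and from 10.77 through 11.29 to 12.22 in HAW, a difference of 0.62 ± 0.30 with an unadjusted p of 0.0484. A further probe set of each gave 1.07 ± 0.46 and 0.62 ± 0.31, though probes of such similar genes may share targets. Control rats ran from 8.79 to 11.27 for Mt2A, wider than either wheat. The pair are neighbours with no gene between them in the RefSeq annotation of GRCr8, and they are known to be switched on by metals through short promoter elements with the cores TGCACNC and TGCGCNC. Their promoters are shown because the pair lay the same way; the runs of 250 bases before to 50 bases after the start site are from RefSeq GRCr8, both on the minus strand, with matches to either core on either strand in capitals. Mt1 is at chr19:10832926-10833225 and Mt2A at chr19:10838659-10838958.
Mt1: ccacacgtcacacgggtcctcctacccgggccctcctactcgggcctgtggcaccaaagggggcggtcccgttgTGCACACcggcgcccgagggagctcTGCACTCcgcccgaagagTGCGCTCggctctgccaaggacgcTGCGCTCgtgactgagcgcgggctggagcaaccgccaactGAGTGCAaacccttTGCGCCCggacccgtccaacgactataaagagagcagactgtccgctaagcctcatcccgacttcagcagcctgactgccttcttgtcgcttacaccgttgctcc
Mt2A: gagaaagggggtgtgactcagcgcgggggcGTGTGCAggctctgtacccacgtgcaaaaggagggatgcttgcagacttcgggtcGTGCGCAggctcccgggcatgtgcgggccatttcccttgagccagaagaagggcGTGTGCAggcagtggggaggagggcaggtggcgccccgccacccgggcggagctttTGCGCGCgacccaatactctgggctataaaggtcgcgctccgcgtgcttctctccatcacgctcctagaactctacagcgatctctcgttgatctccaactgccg
The Mt1 run holds 6 matches, which begin between positions -176 and -55 from the start site, and the Mt2A run holds 4, between -220 and -55. Of 33469 promoters of the same length, 24.2% hold at least 1 match, 0.44% at least 4 and 0.039% at least 6. The matches describe the letters of the promoters and say nothing of binding in these rats.

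The genes that transport and sense short-chain fatty acids lay close together in the wheats. Slc16a1, the monocarboxylate transporter MCT1, ran from 9.87 through 10.46 to 10.68 in LAW and from 9.61 through 10.44 to 10.72 in HAW, a difference of 0.06 ± 0.16 (95% confidence interval -0.26 to 0.38). Slc5a8, the sodium-coupled transporter, differed by -0.08 ± 0.22 (-0.51 to 0.36). The receptor genes Ffar2, Ffar3 and Hcar2 differed by -0.05 ± 0.11, 0.01 ± 0.16 and -0.20 ± 0.14, so that a 2-fold difference lies outside the interval of each of these 5 genes. Of the 14 tested members, Slc26a3 had an unadjusted p under 0.05, beside 1.94% of all genes, and the median was -0.001. Gcg and Pyy, which encode enteroendocrine hormones released on fermentation, differed by 0.11 ± 0.29 and 0.07 ± 0.21. Guca2b and Slc6a14, also fixed for naming, lay at 0.935-fold and 1.10-fold in HAW over LAW. Of 12 tested deacetylase genes, of the Hdac and Sirt families, Hdac10 alone had an unadjusted p under 0.05, at -0.15 ± 0.07. Over all genes, 1.24% were lower at that p. No list of genes that respond to butyrate was examined. The 25 genes of fatty acid oxidation and ketogenesis, which burn butyrate, had a median of 0.01 and none at that level.

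Of 21 tested genes of double-strand break repair, 20 lay lower in HAW, with a list median of -0.165. At an unadjusted p under 0.05 were 4 of them, all lower, where 1.24% of all genes were lower at that p. The 4 were the end-joining genes Lig4 (-0.49 ± 0.22), Nhej1 (-0.24 ± 0.10) and Xrcc4 (-0.22 ± 0.10), and also Brca1, at 0.825-fold in HAW over LAW. Xrcc4 lay near the floor of 4.75 for testing, and the rat HAW 2, at 4.461, lay under it. Lig4 ran from 7.67 through 8.60 to 8.87 in LAW and from 7.51 through 7.97 to 8.76 in HAW, so the ranges overlap. The lowest LAW value was that of 1 rat, LAW 2, and the next was 8.535, above 7 of 8 HAW rats. Of 40 splicing factor genes, 37 lay lower, with a median of -0.149 and Pnn, at -0.42 ± 0.19, the 1 member with an unadjusted p under 0.05. The tested genes of all kinds also leaned this way, 6360 below 0 against 4574 above. Ogg1, which removes oxidised guanine, differed by -0.30 ± 0.12. It was the 1 of 22 tested base excision and single-strand break repair genes with an unadjusted p under 0.05, and their median was -0.05. Of 30 cell cycle and DNA replication genes, 9 lay above 0 and 21 below, with a median of -0.09. Lower at that p were 3: the DNA synthesis genes Tyms and Gins2, by -0.37 ± 0.16 and -0.24 ± 0.09, and Cdkn1b, at 0.871-fold in HAW over LAW. None of these passed over all genes, and the members of a list are measured on the same rats, so their shared side is not counted as separate evidence.

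Over the 43 gene lists, 22 medians lay above 0 and 21 below, and 36 lay between -0.1 and 0.1. The range was from -0.165 (double-strand break repair) to 0.315 (adipocyte). In maize the lists spread wider: 32 medians lay below 0, as for fibroblast and matrix genes (-0.52 against 0.01 in wheat), with 12 of 20 members lower in HAMS, goblet cell genes (-0.39 against 0.04), with 9 of 22, and fatty acid oxidation (-0.37 against 0.01), with 8 of 25. Those counts are read against the 12% of all genes that fell in HAMS.

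**Figure D3:**
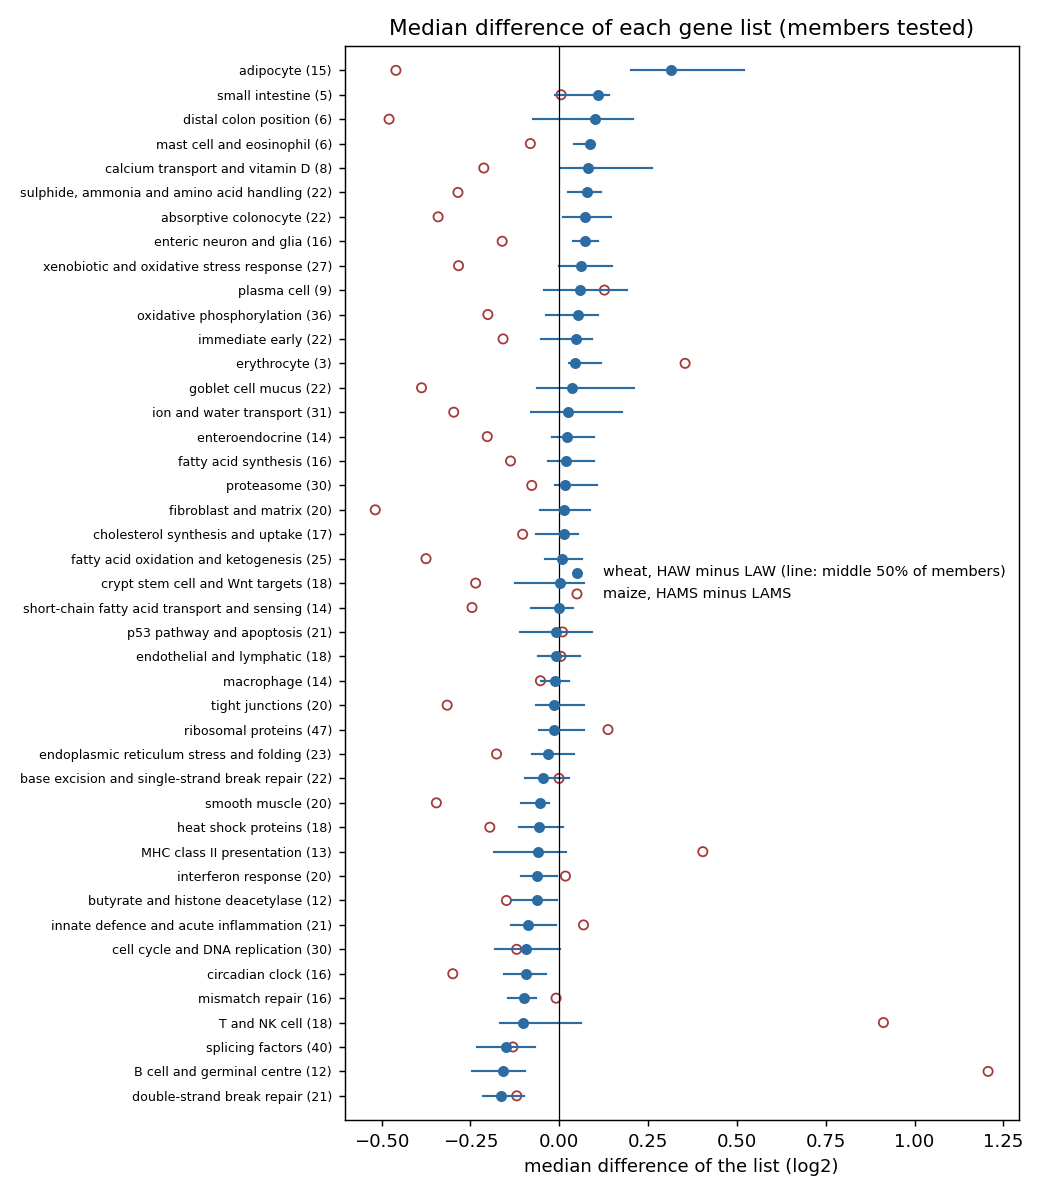
Median log2 difference (horizontal axis) of each gene list (vertical axis, members tested in brackets) for HAW minus LAW (filled, with a line over the middle 50% of members) and HAMS minus LAMS (open). The wheat medians stay between -0.165 and 0.315.

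Markers of the other cell types in whole colon tissue differed between rats more than between the wheats. In bulk tissue, fewer cells of a type and less RNA per cell cannot be told apart. The mean level of the 12 tested B cell and germinal centre genes was 8.30 and 8.43 in 2 LAW rats and at most 6.00 in the other 4. In HAW it was 7.90 and 8.59 in 2 rats and at most 6.44 in the other 6. T and NK cell genes ran from 5.35 to 7.58 in LAW and from 5.42 to 7.65 in HAW. Each wheat thus holds rats with high lymphoid signal, and the list medians were -0.157 for B cell and -0.10 for T and NK cell genes, against 1.21 and 0.91 in maize.

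Adipocyte genes lay higher in HAW in 13 of 15 tested members, beside 4574 of all 10934 genes, with a median of 0.315. The 1 member with an unadjusted p under 0.05 was Fabp4, where 0.695% of all genes were higher at that p. The mean level of the adipocyte genes per rat ran from 5.99 through 6.73 to 7.81 in LAW and from 6.63 through 7.18 to 7.88 in HAW. In the control rats it ran from 6.22 to 6.97. Fabp4, the fatty acid carrier of fat cells, differed by 0.85 ± 0.42, Adipoq, which encodes adiponectin, by 0.96 ± 0.52, and Car3, a carbonic anhydrase abundant in fat, by 1.26 ± 0.77. Car3 ran from 4.78 through 7.74 to 10.49 in LAW and from 7.51 through 9.34 to 10.53 in HAW, so that rats of 1 diet differed widely and the diets overlapped. These 3 genes are among the 10 largest differences, together with Retnlb, Retnla, S100g, Mt2A, Serpina3n, Abo3 and Jchain. The part of adipocyte signal in the other differences was not tested as a cause; with that level as a covariate the S100g difference was 0.94, Retnlb -2.01, Mt2A 0.85 and Jchain 0.72.

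**Figure D4:**
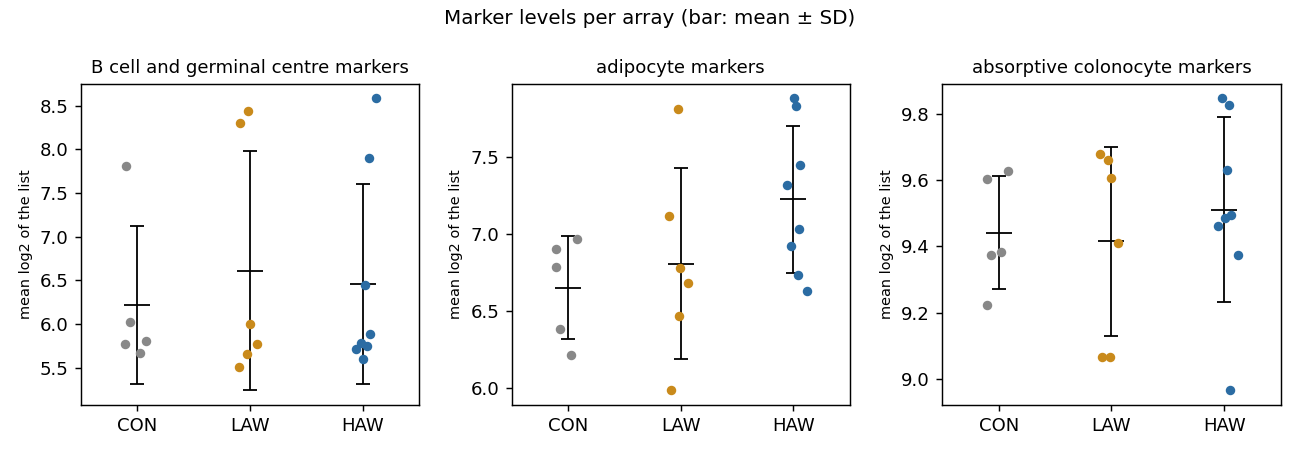
Mean log2 level (vertical axis) of B cell and germinal centre, adipocyte and absorptive colonocyte markers in each rat of the control diet, LAW and HAW; points are arrays and bars give mean ± SD. A pair of rats in each wheat stands high for B cell genes, and adipocyte levels reach from 5.99 to 7.88.

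Genes of the distal colon were present in both wheats. Hoxb13, which marks the distal hindgut, had a mean of 9.98 ± 0.18 (SD, n = 6) in LAW and 10.14 ± 0.33 (SD, n = 8) in HAW. Hoxd10 lay the other way, at 0.818-fold in HAW over LAW, with all 8 HAW rats below the LAW median. Of 6 tested distal colon markers, 4 lay higher and 2 lower in HAW, with a median of 0.10. Whether the rats were matched for position along the colon was not tested. Of 14 small intestine markers, 7 lay under the floor of 4.75 for testing, 2 had no probe set of their own and 5 were tested. Muc2 and Mki67, the gel-forming mucin and a proliferation marker fixed for naming, had no probe set listed with that symbol alone. The spread of all values on an array, its interquartile range, was 3.22 ± 0.15 (SD, n = 6) in LAW and 3.18 ± 0.23 (SD, n = 8) in HAW. The difference of -0.041 had an exact two-sided permutation p of 0.742. Array file names come in styles that no source calls a batch; the one most common among the wheat arrays, in lower case, holds 5 LAW and 5 HAW arrays, and within it 0 genes were called. Retnlb differed there by -1.90, S100g by 0.93 and Efhd1 by 0.32. Names also carry numbers under 31 (2 LAW and 4 HAW arrays) or over 50 (4 and 4). S100g differed by 1.98 in the former and 0.34 in the latter, Retnlb by -2.91 and -1.21, and Per3 by -0.0027 and -0.70, so these values were uneven between the number ranges.

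The difference between HAW and LAW was then tested against that between HAMS and LAMS, which shares no array with it. Of 10934 genes, 3 (0.0274%) differed between wheat and maize at an adjusted limma p under 0.05, and 1674 (15.3%) at an unadjusted p under 0.05. Without the rat HAW 8 the count was 219, and without LAW 2 it was 1; with array weights it was 1119. Eif2s2, a subunit of translation initiation factor eIF2, differed by 0.31 ± 0.14 in wheat and -0.93 ± 0.14 in maize (adjusted p of the difference 0.00182 with limma). Ccdc107 differed by -0.68 ± 0.27 in wheat and 1.33 ± 0.26 in maize, and Rpph1, the RNA of ribonuclease P, by -0.30 ± 0.16 and 0.89 ± 0.15 (adjusted p 0.0139 for each with limma). Without LAW 2 both lost the call (adjusted limma p 0.0573 for each), and Ccdc107 also lost it in 3 other settings, with an adjusted limma p of up to 0.0808. In wheat the ranges of all 3 overlapped, for example from 8.32 to 8.80 in LAW and from 8.61 to 9.23 in HAW for Eif2s2.

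The 1545 genes called in maize gave small values in wheat. Their median was -0.02 in wheat against -0.44 in maize, and 28 of them (1.81%) had an unadjusted p under 0.05 in wheat, close to the 1.94% over all genes. The same sign was seen for 873 (56.5%), beside 53.2% over all genes. The 1308 that were lower in HAMS had a wheat median of -0.02 against -0.47, and the 237 higher a wheat median of -0.0009 against 0.37. For 1383 (89.5%) the wheat interval did not contain the maize value, a value on which these genes were chosen. The difference between wheat and maize passed for 3 of these genes. Slc16a1 is an example: 0.06 ± 0.16 in wheat and -0.54 ± 0.15 in maize, with a tested difference of 0.60 ± 0.22 whose adjusted limma p was 0.207. Across all genes the correlation of the wheat with the maize difference was -0.084 (Pearson), where genes are not independent points. Mt1 and Mt2A lay lower in HAMS, by -0.57 and -0.44, and higher in HAW; the adjusted limma p of that contrast was 0.199 and 0.25.

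**Figure D5:**
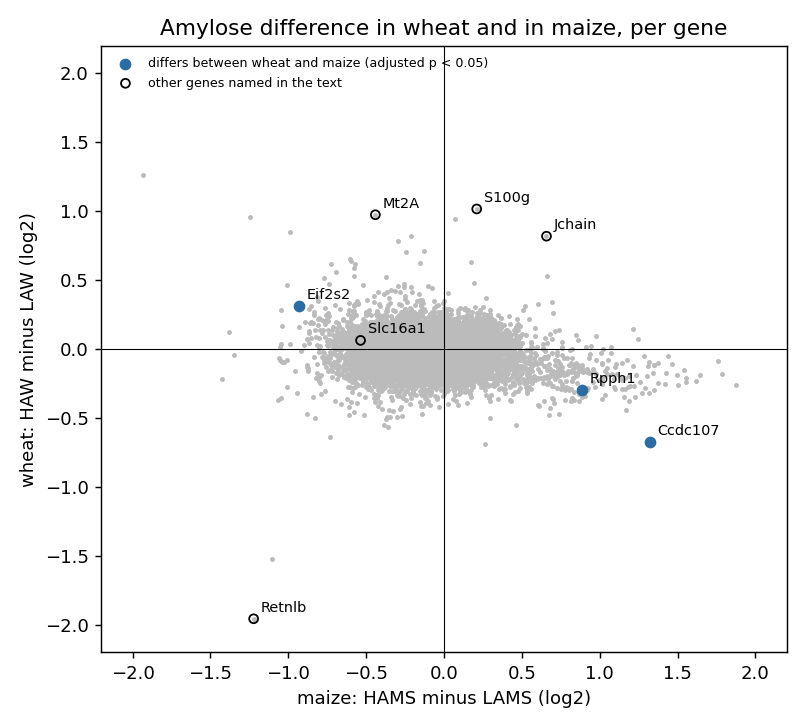
Difference HAW minus LAW (vertical axis, log2) against HAMS minus LAMS (horizontal axis, log2), 1 point per gene; the 3 filled points differ between wheat and maize at an adjusted p under 0.05 and open circles mark other named genes. The cloud is flat: 33 genes reach 0.5 in either direction in wheat, among them Retnlb at -1.96 and S100g at 1.02.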

How the data were processed

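The authors deposited log2 expression values for 29214 probe sets on 43 arrays, which the submitters' processing notes say were made with RMA; the version is not given in the sources used here. RMA aligns arrays to one another, which can remove a shift common to most genes; the deposited arrays still differed in spread (interquartile range 2.678 to 3.400 in the wheats). Values ran from 1.31 to 14.05. Symbols came from the GEO platform annotation: 15310 probe sets had 1, 323 several and 13581 none. Each symbol kept its probe set of highest mean, and genes whose median reached the 25th percentile (4.75) were tested: 10934 of 14506, with 3572 below. Arrays carry no read depth; their number limits the precision.

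A mean per diet was fitted with limma 3.58.1 in R 4.3.3 (lmFit, eBayes), with contrasts HAW minus LAW, HAMS minus LAMS and their difference, two-sided, Benjamini-Hochberg over all genes, threshold 0.05. The script was tested on simulated data. Named genes are the 20 with the smallest p in wheat, the 10 with the smallest p in the wheat and maize difference, up to 4 per list and 11 fixed ones. Those printed are a choice among them. Large differences were described by size, and Mt1, Mt2A, Retnla and Abo3 were among genes chosen after their values were seen. Bmal1, Clock and Mt3 were added beside related genes. The comparison and the 43 lists (1022 members, 828 tested) were chosen with earlier results of these data known. Lists were described by counts and medians, not tested. Alternatives covered filters, probe sets, priors, array weights, centring, blocks, covariates and each array left out. Figures used matplotlib 3.10.9 in Python 3.11.15.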

Additional observations from a re-analysis of the deposited data

Results flagged for a closer look

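In 12 of 124 sets of values checked, 1 rat lay farther from its neighbour than Dixon's 95% criterion allows. Chance gives about 1 in 20 for independent sets, but these share the same rats and include genes chosen by their values. Each set held the values of 1 gene, of the array spread or of the B cell or adipocyte level in LAW or in HAW. For Eif2s2, Ccdc107 and Rpph1 the sets of LAMS and HAMS were checked too. All 12 flagged sets were of the wheats, as were most of the sets checked. Rat HAW 8 was lowest for the array spread (2.678, next 3.123), Rpph1 (11.126, next 11.589), Slc16a1 (9.613, next 10.222) and Slc5a8 (9.162, next 9.975). Rat HAW 2 was lowest for Cradd (4.677, next 5.068) and Xrcc4 (4.461, next 4.881), HAW 4 was lowest for Sgpp1 (7.051, next 7.556), and HAW 5 was highest for Hexd (7.184, next 6.607). Rat LAW 2 was lowest for Lig4 (7.668, next 8.535) and highest for Ffar3 (6.566, next 5.915), LAW 4 was highest for Rarres2 (7.04, next 6.637), and LAW 6 was highest for Serpina3n (7.943, next 6.034).

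The difference between HAW and LAW departed from that between HAMS and LAMS, by the tested contrast, for Eif2s2 (1.243), Ccdc107 (-2.003) and Rpph1 (-1.188).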

How the results depend on the processing

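For HAW minus LAW the count of genes called was 0 with limma in each of the 14 fits without 1 wheat rat (range 0 to 0; 139 to 469 genes at an unadjusted p under 0.05) and in 18 of 19 other settings. The exception, within array name numbers under 31, a split chosen after seeing the data, called 1 gene: Abcg3l3, a transporter gene, at 1.03 ± 0.15 (adjusted limma p 0.0289) over 2 LAW and 4 HAW arrays, against 0.17 ± 0.22 over all wheat rats. It was named after its value was seen. An unadjusted p under 0.05 was reached by 924 genes with array weights, 1162 within name numbers under 31 and 639 within numbers over 50. Each of these is more than 5% of the 10934 genes, and every other setting gave less than 5%. Over all settings, 1493 values of single genes kept their direction and call, 40 without a call changed sign, 62 wheat minus maize values gained a call, 5 lost one, and 0 called values changed sign. The array spread differed by 0.0309 within the lower-case name style (exact permutation p 0.651) and by -0.0902 to 0.0313 without each rat in turn.

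The count for wheat minus maize was 3, and became 9 with all probe sets, 1119 with array weights, 50 with name style as a block, 33 with name style and number range, 5 with the lymphoid level as a covariate and 1 to 219 without 1 rat. Counts over 1.5 times away came without LAMS 1 (5), LAMS 2 (8), HAMS 1 (16), HAMS 3 (11), HAMS 5 (17), LAW 2 (1), LAW 6 (10), HAW 5 (9) and HAW 8 (219). Ccdc107 lost its call with only the compared diets (adjusted limma p 0.0808), with array spread (0.0546) or adipocyte level (0.0747) as a covariate and without LAW 2 (0.0573), as did Rpph1 without LAW 2 (0.0573).

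The HAMS minus LAMS count of 1545 became 2643 with all probe sets, 4059 with array weights, 492 with only the compared diets, 945 with name style and 901 with style and range as blocks, 581 with lymphoid level, 53 with adipocyte level and 6 with array spread as a covariate. Without 1 rat it ran from 614 to 2425, and moved over 1.5 times without LAMS 3 (749), LAMS 6 (614), HAMS 1 (2425), HAMS 2 (906), HAMS 4 (959), HAMS 6 (642) and HAMS 8 (766). In all these settings the cause was not tested.

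Replicate numbers did not pair the wheat rats: 2 of 6 same-numbered pairs correlated over 0.1, and 0 LAW rats correlated best with their own number. With the number as a replicate block the counts were 0 in wheat, 3 for wheat minus maize and 602 in maize, 600 of them among the 1545.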
